A study of Mus musculus with 15 samples.

Results

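The kidneys of mice that had a ureter tied and ate a silicon-based diet were compared with the kidneys of sham-operated mice on a normal diet, both at day 14. The members were chosen by their labels alone: 6 libraries with unilateral ureteral obstruction and the silicon-based diet (UUO_Si) and 3 libraries with sham operation and normal diet (sham), which makes 9 of the 15 libraries of the series. The remaining 6 libraries came from obstructed kidneys on the normal diet (UUO, day 14). All mice were labelled wild type (WT), and strain, age, sex and the side of the kidney taken were not stated in the labels. Because UUO_Si and sham differed in both operation and diet, a difference between them cannot be assigned to either one alone, and there was no sham group on the silicon-based diet among the labels. Nothing in the labels says whether the libraries came from separate animals, so the tests measure the spread between these libraries.

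In unilateral ureteral obstruction, a ureter is tied and urine pressure rises in the kidney above it. Tubule cells are injured, lose their specialised transport and metabolism, and are partly lost, while macrophages gather between the tubules and fibroblasts lay down collagen. The model is widely used to study fibrosis, the replacement of working tissue by matrix, and silicon-based agents have been studied as a source of hydrogen released in the gut.

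Library totals were 5530000 to 8310000 counts in sham and 7750000 to 11500000 in UUO_Si. Of the 9 libraries, sham replicate 3 and UUO_Si replicate 6 stood apart: they held counts in 1227 and 980 of 1456 olfactory and vomeronasal receptor genes, against 83 to 126 in the other 7. UUO_Si replicate 6 was also the single UUO_Si library whose code in the labels began with RM7 rather than RM4. The 50 most abundant genes took 23.3 ± 1.17% of counts in sham (SD, n = 3) and 18.3 ± 2.04% in UUO_Si (SD, n = 6; exact permutation test, two-sided, p = 0.0119, adjusted p = 0.0555 over 7 library measures), and 0.0119 is the smallest p that 3 against 6 libraries can give. In a principal component analysis of the 9 libraries the first component, with 64% of the variance, placed the sham libraries at -114, -111 and -80.1 and the UUO_Si libraries between 44.9 and 59.2.

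Of 16752 genes tested, 8834 (52.7%) differed between UUO_Si and sham at an adjusted p under 0.05 in edgeR's quasi-likelihood test. Of these, 4558 (27.2% of all tested) were higher and 4276 (25.5%) were lower in UUO_Si. In edgeR's test against a 2-fold change, 1297 genes (7.74%) were higher and 1117 (6.67%) were lower. The 2 groups did not overlap, so that every UUO_Si library lay above every sham library, in 4016 genes (24%), and lay below in 3644 (21.8%). The median log2 fold change over all genes tested was -0.04, and for 3695 genes (22.1%) the 95% interval of the fold change lay within 1.5-fold either way. Scaling of the libraries centres the bulk of genes near 0, so this median and the balance of rises and falls are partly set by it. The count of called genes in each list is to be read against these shares. Levels are in CPM (counts per 1e+06 of the scaled library size), differences are log2 fold changes of UUO_Si minus sham with their standard error, and p-values are edgeR's, adjusted over all genes tested.

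**Figure D1:**
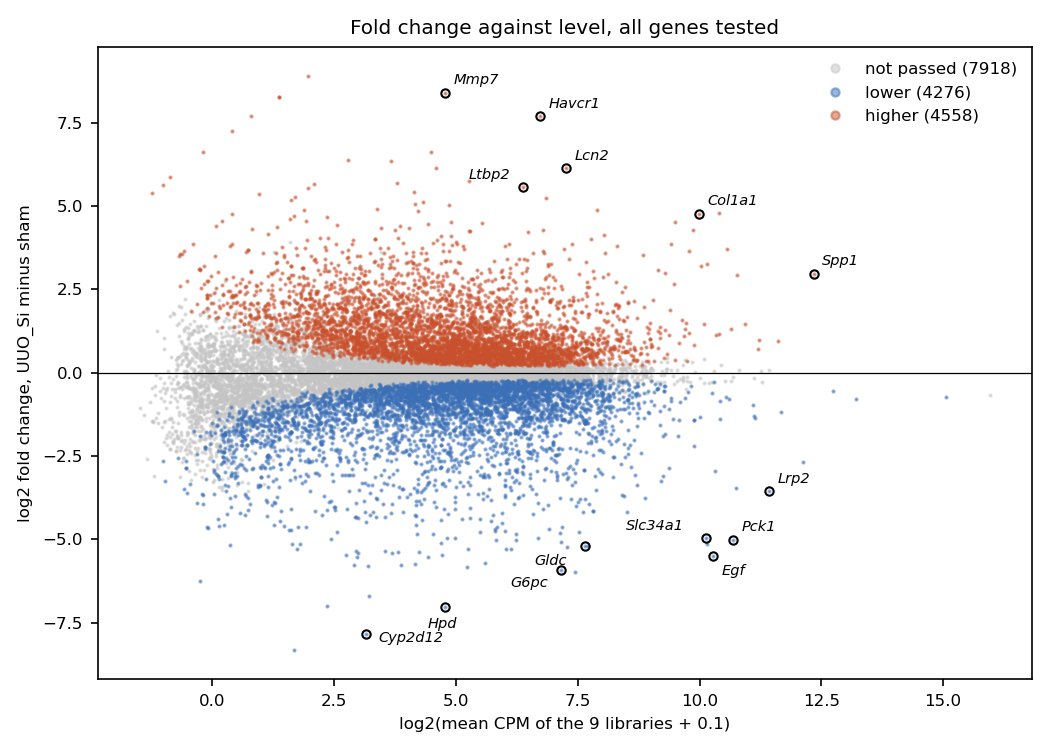
Log2 fold change of UUO_Si against sham for each of the 16752 genes tested (y axis) against the log2 of its mean level over the 9 libraries in CPM plus 0.1 (x axis), coloured by edgeR's call at an adjusted p of 0.05. Red points are the 4558 higher genes, blue points the 4276 lower genes and grey points the 7918 that did not pass; the labelled genes reach 8.41 (Mmp7) and -7.83 (Cyp2d12).

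The largest rises were genes of injured tubule and of matrix turnover. They were taken from called, established genes with a mean of at least 5 CPM and no overlap between the groups. Mmp7 (chr9:7692090-7699585, + strand), which encodes the matrix-degrading enzyme matrilysin, was at 0, 0 and 0.379 CPM in the sham libraries and at 20.3 to 56.7 CPM (median 43.5) in UUO_Si. The sham value rests on 2 counts in all, against 2331 in UUO_Si, a ratio of 371.6 (95% interval 102.8 to 3071, counting error only). Havcr1 (chr11:46735080-46779578, + strand), the kidney injury molecule KIM-1 of the tubule surface, went from 1.29, 0.32 and 0.568 CPM to 61.7 to 225 CPM (median 175), a log2 fold change of 7.70 ± 0.69 (adjusted p = 7.5e-08). Ranges that do not overlap were a condition of this choice, so the separation of the groups is not a further result. Lcn2, which encodes the iron-binding injury marker NGAL, was at 1.72, 4.63 and 3.41 CPM in sham and 174 to 317 CPM (median 225) in UUO_Si (6.14 ± 0.44). Timp1 (chrX:20870166-20874735, + strand), an inhibitor of matrix metalloproteinases, was at 0, 0 and 0.758 CPM and rose to 13.4 to 25 CPM (median 17.6) (6.35 ± 0.62). Also among the 10 were the epithelial keratin Krt20 (5.76), Arhgap36 (6.62), the cytokine-induced ubiquitin-like Ubd (6.14), the TGF-beta binding protein Ltbp2 (5.58) and Retnla. Retnla, made by alternatively activated macrophages, also had only 2 sham counts against 561 in UUO_Si, a ratio of 89.4 (95% interval 24.6 to 740.4, counting error only).

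The 10 largest falls were led by enzymes and carriers of the proximal tubule. Cyp2d12 (chr15:82555072-82560403, + strand), a cytochrome P450, was at 26.5, 31.2 and 20.8 CPM in sham and at 0 to 0.251 CPM (median 0.0566) in UUO_Si (-7.83 ± 0.69, adjusted p = 6.14e-08). Hpd (chr5:123171807-123182727, - strand), which encodes a tyrosine-degrading dioxygenase, went from 105, 76.1 and 59.9 CPM to 0 to 1.58 CPM (median 0.302) (-7.03 ± 0.58). G6pc (chr11:101367561-101377903, + strand), the glucose-releasing last enzyme of gluconeogenesis, went from 418, 468 and 348 CPM to 1.38 to 13.2 CPM (median 6.06) (-5.93 ± 0.36). For the falls too, the lack of overlap between the groups was a condition of the choice. Slc22a8, the organic anion transporter OAT3, fell from 588, 511 and 412 CPM to 2.14 to 22.2 CPM (median 5.54) (-5.99 ± 0.60). Bhmt, of betaine and methionine metabolism, fell from 38.8, 22.2 and 19.9 CPM (-6.69 ± 0.88), and falls were also called for Kcnt1, a potassium channel (-5.83), and Nccrp1 (-5.74). Slc22a28, Slc22a29 and Slc22a30 fell as well (log2 fold changes of -5.80, -5.77 and -5.77), but these 3 are near-identical neighbours among which reads may be shared, so their separate values are uncertain.

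The promoters of the strongest rises and falls are shown because several of these genes hold short motifs of the factors that act in injured or in healthy tubule. The window searched ran from 250 bases before to 50 bases after each gene's start in RefSeq (GRCm38.p6), read on both strands, and 12359 of the 16752 genes tested had one, among them 78 of the 100 largest rises and 79 of the 100 largest falls. The AP-1 motif TGANTCA was in 15 (19.2%) of the rising set, 5 (6.33%) of the falling set and 5.7% of all. The kappa-B motif, which the NF-kappa-B factors of inflammation bind, was in 8 (10.3%), 1 (1.27%) and 1.67%. The HNF4 motif CAAAGTCC was in 3 (3.85%), 4 (5.06%) and 1.57%. 2 other motifs searched were in nearly the same share of each set. They were NF-Y (CCAAT) in 33.3%, 34.2% and 38.0%, and TEAD (GGAATG) in 14.1%, 15.2% and 12.6%. A motif of the factor HNF1 was also planned and has no result here. RefSeq's start can differ from the outermost start in GENCODE, so for some genes the window lies inside the GENCODE gene. The genes were chosen for their fold change, so these shares are a description, and a match is a run of letters and not a bound site. The stretches printed lie before RefSeq's start and show the motif in capitals with up to 25 bases on either side, 5′ to 3′ on the strand of the gene. First come AP-1 matches upstream of genes that rose, Mmp7 and the interleukin-1 receptor antagonist Il1rn:
Mmp7, chr9:7692002-7692058, + strand: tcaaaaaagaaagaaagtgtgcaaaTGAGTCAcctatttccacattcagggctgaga
Il1rn, chr2:24336694-24336750, + strand: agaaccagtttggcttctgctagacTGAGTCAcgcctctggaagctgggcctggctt
Next come kappa-B matches upstream of the neutrophil chemokine Cxcl1 and of Ubd:
Cxcl1, chr5:90891149-90891208, + strand: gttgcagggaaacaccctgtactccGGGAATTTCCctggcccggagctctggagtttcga
Ubd, chr17:37193852-37193891, + strand: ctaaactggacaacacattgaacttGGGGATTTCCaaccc
Last comes an HNF4 match upstream of Aspdh, a metabolic gene of the falling set:
Aspdh, chr7:44465358-44465415, + strand: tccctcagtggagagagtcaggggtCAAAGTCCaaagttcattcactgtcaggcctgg
The Mmp7 match begins 63 bases before the start and the Ubd match 15 bases before it. The Cxcl1 stretch also holds another kappa-B match, read on the opposite strand. It begins 89 bases before the start and is left in lower case. Il1rn, at 0.573, 0.16 and 3.98 CPM in sham, rose to 11.5 to 18.4 CPM (median 16.1) (3.41 ± 0.49), Cxcl1 from 0.573, 0.32 and 0.568 CPM to 12.2 to 18.7 CPM (median 14.9) (4.93 ± 0.39). Aspdh went from 60.9, 63.5 and 38.3 CPM to 0.796 to 2.2 CPM (median 1.22) (-5.37 ± 0.30).

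The proximal tubule, which takes back most of the filtered salt, sugar, phosphate and protein, showed the deepest list-wide fall. All 34 members tested fell, with a median of -3.29, against -0.04 over all genes and 25.5% of all genes called lower. Together they took between 2.81% and 3.02% of the counts of a sham library and between 0.155% and 0.426% of those of a UUO_Si library. Slc34a1, the main phosphate carrier, was at 3616, 3484 and 2326 CPM in sham and at 34.4 to 213 CPM (median 84.9) in UUO_Si (-4.96 ± 0.46, adjusted p = 1.07e-07). Lrp2, the protein uptake receptor megalin, went from 7459, 6945 and 6708 CPM to 319.7 to 849.8 CPM (median 619.7) (-3.55 ± 0.24). The 2 ranges were separated for both genes. The amino acid carrier Slc6a18 (-3.13 ± 0.18), the lactate carrier Slc5a12 (-3.87 ± 0.26) and the urate carrier Slc17a3 (-4.25 ± 0.29) had the smallest p-values of the list along with Amn. In whole-kidney RNA, fewer cells of a type and less RNA of a gene per cell cannot be told apart in any of the lists of cell type markers.

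**Figure D2:**
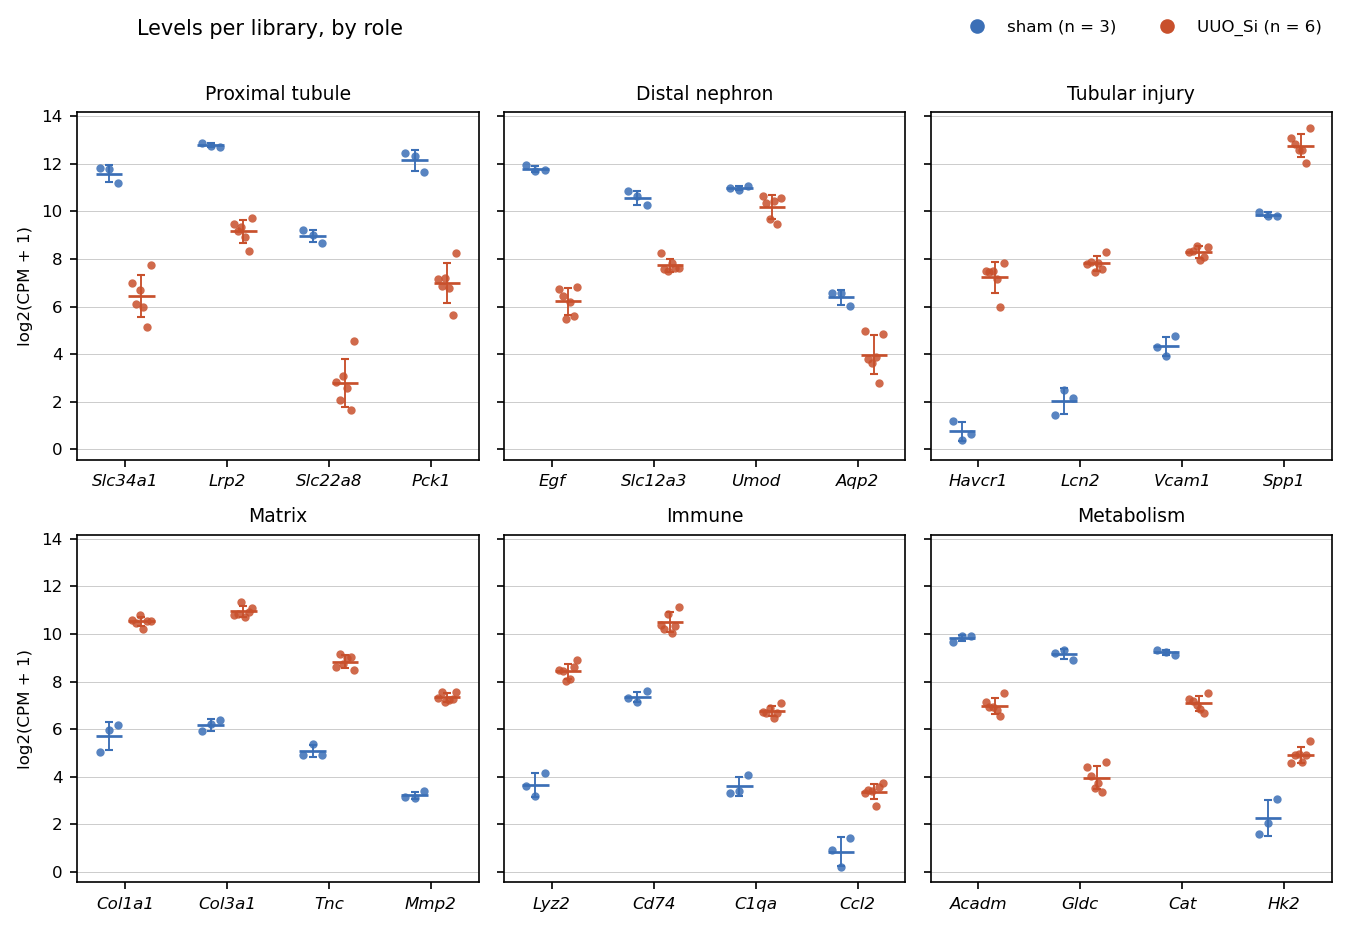
Level of 24 genes in each library as log2(CPM + 1) (y axis), in 6 panels by role, with sham in blue (n = 3) and UUO_Si in red (n = 6); bars are means and whiskers standard deviations on that scale. Every gene except Umod shows a gap of more than 1 unit between the groups, and the UUO_Si points of Slc34a1 and Slc22a8 spread more widely than those of Col1a1 or Mmp2.

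Segments after the proximal tubule fell less evenly. Of 20 members for the loop of Henle and distal tubule, 17 fell and 2 rose (median -1.79), and of 21 for the collecting duct, 18 fell and 1 rose (median -1.46). Egf, the growth factor made by the loop and distal tubule, had the smallest p of the first list and went from 3912, 3314 and 3445 CPM to 43.9 to 112 CPM (median 79) (-5.51 ± 0.27, adjusted p = 1.21e-10). Umod, the loop protein uromodulin, changed far less: 2028, 1898 and 2132 CPM in sham and 704 to 1626 CPM (median 1332) in UUO_Si (-0.72 ± 0.21, adjusted p = 0.00774). The thiazide-sensitive carrier Slc12a3 fell (-2.85), Klhl3, part of its regulation (-2.83), and the potassium channel Kcnj1 (-0.98). The 2 rises were the claudins of the thick ascending limb, Cldn19 (23.6, 23.3 and 23.5 CPM in sham, 32.1 to 59.5 CPM in UUO_Si, 0.92 ± 0.19) and Cldn16 (0.78 ± 0.26, adjusted p = 0.017), and the groups overlapped for Cldn16, which did not pass when sham replicate 2 was left out (0.61, adjusted p = 0.0903). In the collecting duct the water channel Aqp2 fell from 93.9, 93.2 and 63.7 CPM to 5.9 to 29.9 CPM (median 13.3) (-2.30 ± 0.34), the sodium channel subunit Scnn1a fell (-1.46) and the bicarbonate exchanger Slc26a4 (-2.21). The intercalated cell genes did not move as one. Slc26a4, Atp6v1c2 (-2.01) and Rhbg (-2.09) fell, with the smallest p-values of the list along with Scnn1a. Kit rose from 31.1, 38.5 and 41.9 CPM to 54.6 to 73.4 CPM (0.87 ± 0.15). The proton pump subunit Atp6v0d2 (-0.02 ± 0.14, adjusted p = 0.911) and the transcription factor Foxi1 (0.14 ± 0.21, adjusted p = 0.61) did not pass.

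Of 16 podocyte genes tested, of the filtration barrier, 6 rose and 5 fell (median -0.12), and 3 fell without sham replicate 1 or sham replicate 2. With 27.2% of all genes higher and 25.5% lower, no list-wide change is read from these counts. Kirrel, a slit diaphragm protein, rose from 34.8, 33.9 and 39.8 CPM to 95.5 to 114 CPM (median 109) (1.56 ± 0.10), and Tcf21, a transcription factor that interstitial fibroblasts also use, rose from 20.3, 19.5 and 21.2 CPM to 62.4 to 99.5 CPM (median 71.8) (1.88 ± 0.16). The scaffold gene Magi2 fell from 86, 89.5 and 66.5 CPM to 32.4 to 58 CPM (median 42.2) (-0.88 ± 0.19, adjusted p = 0.000717).

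Of 28 transcription factors and regulators of nephron cells, 17 fell and 2 rose (median -0.64). The 2 that rose, Gata3 (0.33 ± 0.13, adjusted p = 0.0432) and Tfap2a (0.31 ± 0.13, adjusted p = 0.0463), both failed to pass when any 1 of sham replicates 1 and 2 or UUO_Si replicates 1, 3 and 5 was left out. The bile acid receptor gene Nr1h4 was at 131, 130.4 and 111 CPM in sham and fell to 18 to 28.2 CPM (median 23.7) in UUO_Si (-2.39 ± 0.14, adjusted p = 1.06e-09), as did the mitochondrial coactivator Ppargc1a (-1.84) and the early nephron factor Lhx1 (-2.47). Of the 9 members that did not pass, the 2 of highest level are named. Pax8 was at 155, 163 and 128 CPM in sham and 143 to 192 CPM (median 169) in UUO_Si (0.18 ± 0.12, adjusted p = 0.243). Tfcp2l1 changed by 0.12 ± 0.11 (adjusted p = 0.402). Kl, the anti-ageing factor klotho of the distal tubule, fell from 411, 387 and 423 CPM to 38.4 to 91.5 CPM (median 57.8) (-2.71 ± 0.23).

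Genes that tubule cells switch on after injury rose in 17 of 19 members, with none lower (median 2.54, against 27.2% of all genes called higher). Vcam1, an adhesion molecule of tubule cells that fail to repair, was at 18.5, 14.2 and 26 CPM in sham and 247 to 377 CPM (median 318) in UUO_Si (4.02 ± 0.21, adjusted p = 2.08e-10). Spp1, the secreted protein osteopontin, rose from 1008, 903 and 885 CPM to 4221 to 11590.0 CPM (median 6709) (2.97 ± 0.34). Neither gene overlapped between the groups. The hyaluronan receptor Cd44 rose by 4.22 and the progenitor factor Sox4 by 2.54, whereas Igfbp7, a proposed early injury marker, was at 975, 955 and 905 CPM and 818 to 1254 CPM (median 921) and did not pass (0.02 ± 0.16, adjusted p = 0.905). Keratin and urothelium genes rose in 10 of 16 and fell in 1, Krt80 (-0.68 ± 0.19), with a median of 2.22. Krt14 went from 0.716, 4.48 and 0.758 CPM to 10.6 to 55.4 CPM (median 21.2) (3.63 ± 0.64), the cornified envelope gene Sprr1a rose by 2.82 and the surface antigen Psca by 2.95. The share of urothelium in each piece of kidney was not measured, and its part in these rises was not tested.

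**Figure D3:**
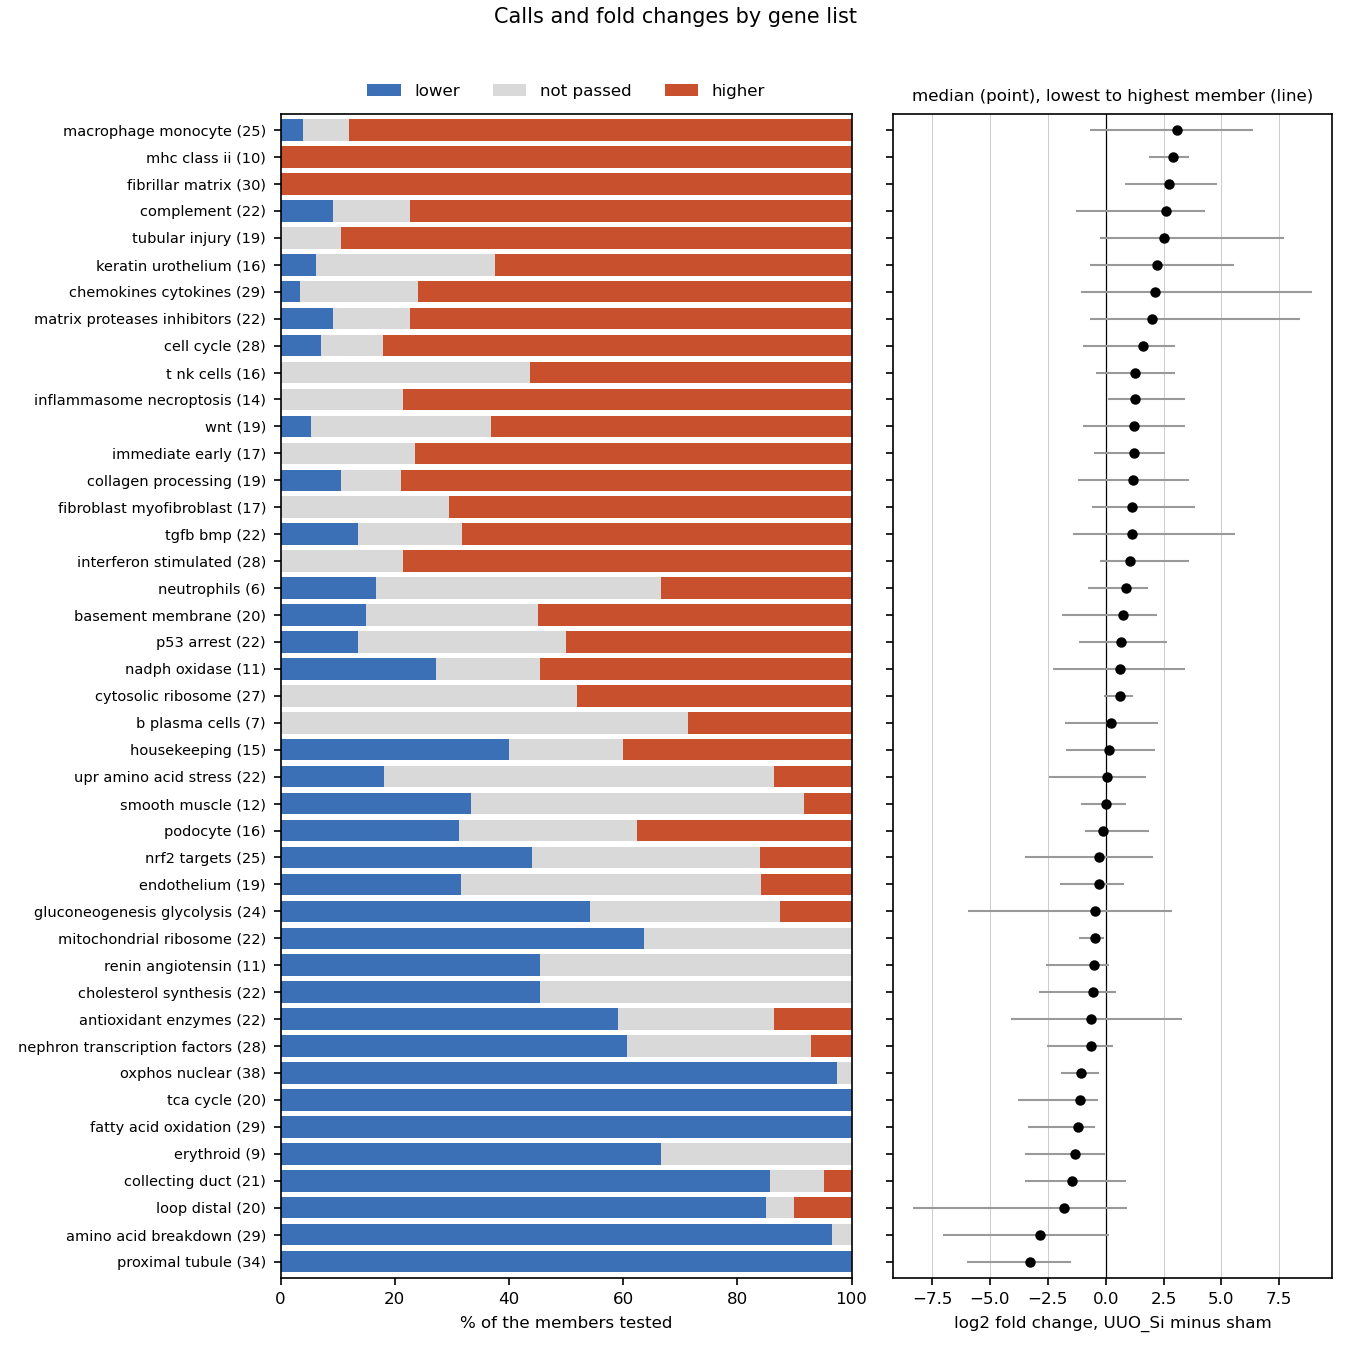
For each of 43 gene lists, with the number of members tested in brackets, the left panel gives the percent of members called lower (blue), not passed (grey) and higher (red) in edgeR; the right panel gives the median log2 fold change of UUO_Si against sham as a point and the lowest to highest member as a line. Lists run from macrophage genes at the top (median 3.09) to proximal tubule genes at the bottom (median -3.29).

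All 30 genes of fibrillar and interstitial matrix rose, and none of their groups overlapped (45.7% of all genes tested did not overlap, in either direction) (median 2.72). They took between 0.153% and 0.209% of the counts of a sham library and between 1.35% and 1.7% of those of a UUO_Si library. Col1a1, a chain of the main fibre collagen of scars, was at 32, 61.4 and 70.1 CPM in sham and at 1174 to 1799 CPM (median 1504) in UUO_Si (4.78 ± 0.32, adjusted p = 2.94e-09). Col3a1, its partner in loose tissue, went from 58.7, 74 and 81.6 CPM to 1654 to 2605 CPM (median 1894) (4.80 ± 0.32). Every UUO_Si library was far above the highest sham library for both genes. Col15a1, which links collagen fibres to basement membranes, rose by 3.54 ± 0.15, the wound matrix protein Tnc by 3.81 ± 0.20, fibronectin Fn1 by 3.28 ± 0.24 and periostin Postn by 3.10 ± 0.52.

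Enzymes and chaperones that make collagen rose in 15 of 19 members and fell in 2 (median 1.19). Lox, which cross-links collagen, was at 11.2, 12.5 and 17.1 CPM and rose to 125 to 199.9 CPM (median 163) (3.58 ± 0.19), and the collagen chaperone Serpinh1 rose by 1.52. The 2 that fell were the prolyl hydroxylase subunit P4ha1 (94.6, 97.2 and 97.9 CPM in sham, 66.4 to 80.7 CPM in UUO_Si, -0.43 ± 0.10) and the procollagen peptidase Adamts14 (-1.20 ± 0.26). Basement membrane genes rose in 11 of 20, fell in 3 and did not pass in 6 (median 0.73). The type IV collagens went in both directions. Col4a2, of the chain pair found in all basement membranes, rose from 504, 531 and 457 CPM to 1306 to 1496 CPM (median 1361) (1.47 ± 0.11, adjusted p = 1.34e-08). Col4a3 and Col4a4, of the network in the glomerulus and some tubules, fell: Col4a3 from 1589.5, 1619 and 1192 CPM to 309 to 444 CPM (median 402) (-1.91 ± 0.14) and Col4a4 (-1.56). Among laminins and their partners, Nid1 rose by 2.05 and Lama3 fell (-1.40).

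Matrix proteases and their inhibitors rose in 17 of 22 and fell in 2 (median 2.0). Mmp2, a gelatinase of fibroblasts, was at 7.88, 7.51 and 9.47 CPM in sham and 138 to 185 CPM (median 155) in UUO_Si (4.28 ± 0.17, adjusted p = 3.43e-11), and its activator Mmp14 rose by 3.85. The 2 members that fell were Timp3, a matrix-bound inhibitor (1771, 1606 and 1364 CPM in sham, 841 to 1186 CPM in UUO_Si, -0.62 ± 0.14), and the urokinase gene Plau (-0.53 ± 0.13). Timp1 and Timp3, both inhibitors of metalloproteinases, thus changed in opposite directions.

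Fibroblast and myofibroblast markers rose in 12 of 17 and none fell (median 1.16). Pdgfrb, a receptor of fibroblasts and pericytes, was at 62.5, 73.2 and 67.3 CPM and rose to 249.7 to 296 CPM (median 271) (2.01 ± 0.13), Pdgfra rose by 1.86, Thy1 by 3.86 and the filament Vim by 2.42. Acta2, the contractile actin used as the myofibroblast marker, did not pass: it was at 62.3, 125 and 64.2 CPM in sham and 102 to 173 CPM (median 145) in UUO_Si (0.76 ± 0.34, adjusted p = 0.0654), and sham replicate 2 lay inside the UUO_Si range. Without that library the change was 1.18 and passed (adjusted p = 0.0175). Acta2 is also a gene of arterial smooth muscle, whose list held 1 rise, the filament Des (0.85 ± 0.21), and 4 falls among 12 members, led in level by Smtn (-0.67 ± 0.17), with a median of 0.01. In the lists by library, the smooth muscle median of sham replicate 2 was the highest of the 9, and the part of vessel wall in the Acta2 values was not tested.

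TGF-beta and BMP genes rose in 15 of 22 and fell in 3 (median 1.15). Among ligands, Tgfb1, the main driver of scarring, was at 22.4, 14.4 and 15.9 CPM in sham and 70.6 to 85.2 CPM (median 81) in UUO_Si (2.17 ± 0.13, adjusted p = 1.07e-09), while Bmp7, a ligand that opposes it in the kidney, fell from 44.3, 32.6 and 26.5 CPM to 13.5 to 17.8 CPM (median 15.6) (-1.14 ± 0.16). The receptor Tgfbr1 rose by 1.62. The BMP target Id1 fell (-1.43), and the inhibitory Smad7 did not pass (-0.24 ± 0.13, adjusted p = 0.135), although it passed without sham replicate 3 (-0.37, adjusted p = 0.0325). Wnt genes rose in 12 of 19 and fell in 1 (median 1.25). The ligand Wnt4 rose from 6.3, 7.03 and 8.34 CPM to 30.9 to 53.5 CPM (median 40.6) (2.52 ± 0.19), the secreted modulators Dkk3 and Frzb by 2.13 and 2.81, and Wnt11 was the 1 that fell (-0.97 ± 0.34, adjusted p = 0.0229), with overlapping groups, and it did not pass when sham replicate 2 (-0.79, adjusted p = 0.116) or sham replicate 3 (-0.92, adjusted p = 0.0566) was left out.

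Macrophage and monocyte genes had the highest median of the 43 lists (3.08), with 22 of 25 higher and 1 lower. Lyz2, the lysozyme of myeloid cells, was at 11.2, 7.99 and 16.9 CPM in sham and 262 to 477 CPM (median 354) in UUO_Si (4.88 ± 0.27, adjusted p = 4.41e-10). The receptor Csf1r rose from 80.2, 69.4 and 66.9 CPM to 170.3 to 205 CPM (median 187) (1.38 ± 0.09), the surface marker Adgre1 by 2.86 and the endotoxin receptor Cd14 by 3.34. Mertk, a receptor for taking up dead cells, was the 1 that fell (193, 179 and 135 CPM in sham, 73.5 to 140.4 CPM in UUO_Si, -0.67 ± 0.23, adjusted p = 0.0196), and it did not pass when sham replicate 1 was left out (adjusted p = 0.106), nor without sham replicate 2 (adjusted p = 0.0746). All 10 MHC class II genes rose (median 2.90), among them H2-Aa (3.58 ± 0.27) and the invariant chain Cd74, from 159, 139 and 191 CPM to 1043 to 2241 CPM (median 1319.8) (3.20 ± 0.25). For the defining myeloid genes named here, then, the sham and UUO_Si ranges were apart except for Mertk.

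T and NK cell genes rose in 9 of 16 with none lower (median 1.26), and the count varied with the sham libraries. The list's median in sham replicate 3, relative to the sham mean, was 1.40, inside the UUO_Si range of 0.86 to 1.69, while sham replicates 1 and 2 were at -0.59 and -0.58. Without sham replicate 3, 13 of 16 rose with a median of 2.96, and without sham replicate 2, 6 rose with a median of 0.87. Cd4 went from 2.44, 0.799 and 4.36 CPM to 15.7 to 24.7 CPM (median 19.1) (2.99 ± 0.36, adjusted p = 2.68e-06) and the T cell receptor subunit gene Cd3e rose by 2.40, whereas Cd3d, at 1.29, 1.44 and 4.93 CPM and 1.54 to 3.77 CPM (median 2.56), did not pass (0.07 ± 0.43, adjusted p = 0.897). B and plasma cell genes (2 of 7 higher, median 0.25) and neutrophil genes (2 of 6 higher and 1 lower, median 0.86) were low throughout. Their medians turned negative without sham replicate 2, at -0.21 and -0.53, so no direction is given for either list. The 2 granulocyte receptor genes of the list went apart: Cxcr2 fell from 7.88, 9.75 and 16.5 CPM to 4.41 to 8.79 CPM (median 6.41) (-0.76 ± 0.30, adjusted p = 0.04) with overlapping groups. It did not pass when any 1 of sham replicates 2 and 3 or UUO_Si replicates 1, 2, 3 and 6 was left out (-0.40, adjusted p = 0.312 without sham replicate 3). Csf3r rose from 4.3, 1.12 and 8.71 CPM to 12.9 to 23.6 CPM (median 15.6) (1.84 ± 0.37).

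Chemokines and cytokines rose in 22 of 29 and fell in 1, Ccl28 (-1.08 ± 0.34, which did not pass without sham replicate 3, at -0.45, adjusted p = 0.269; list median 2.15). Among ligands, the monocyte attractant Ccl2 was at 0.86, 0.16 and 1.71 CPM in sham and 5.86 to 12.2 CPM (median 9.74) in UUO_Si (3.43 ± 0.45, adjusted p = 5.3e-06). Ccl6 rose by 4.50, the transmembrane chemokine Cxcl16 by 2.16 and the alarm cytokine Il33 by 2.34. Il1b, a cytokine released through inflammasomes, was at 2.87, 1.6 and 1.89 CPM and 2.38 to 6.75 CPM (median 4.44) and did not pass (1.10 ± 0.64, adjusted p = 0.159). Inflammasome and necroptosis genes rose in 11 of 14 (median 1.26), those of smallest p being the inflammatory caspase gene Casp4 (2.63 ± 0.20) and the nucleic acid sensor Zbp1 (2.26 ± 0.25). Complement genes rose in 17 of 22 and fell in 2 (median 2.61). C1qa, of the first component and a macrophage product, rose from 9.03, 9.43 and 15.5 CPM to 87 to 134 CPM (median 102) (3.26 ± 0.18) and C1s1 by 2.86, while Cfb, of the alternative pathway, fell from 259, 249 and 207 CPM to 68.8 to 194 CPM (median 115) (-1.04 ± 0.29). Interferon-stimulated genes rose in 22 of 28 with none lower (median 1.05), among them the macrophage factor Irf8 (1.99 ± 0.14) and Oasl2 (1.69 ± 0.15).

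Single NADPH oxidase genes, whose products make superoxide, changed in either direction. Of 11 members, 6 rose and 3 fell (median 0.62), with 27.2% of all genes higher and 25.5% lower, so no list-wide fall is read from the count. Cybb, the catalytic subunit of phagocytes, went from 8.45, 8.47 and 17.6 CPM to 94.1 to 141 CPM (median 118) (3.41 ± 0.21), and its partner Ncf1 rose by 2.67. Nox4, the oxidase of kidney tubules, fell from 294, 277 and 298 CPM to 34.8 to 101 CPM (median 56.1) (-2.30 ± 0.30, adjusted p = 6.32e-06), and Cyba, which serves both, fell (-0.88). Antioxidant enzymes fell in 13 of 22 and rose in 3 (median -0.64). Catalase, Cat, was at 645, 603 and 547 CPM in sham and 101 to 179.7 CPM (median 136) in UUO_Si (-2.13 ± 0.16), the mitochondrial superoxide dismutase Sod2 fell (-1.77) and Prdx5 (-2.33). Gpx7 and Gpx8, peroxidases of the endoplasmic reticulum, rose by 3.30 and 1.61. Targets of the stress factor NRF2 fell in 11 of 25 and rose in 4 (median -0.27): Gclc, of glutathione synthesis, fell (-1.65) and the quinone reductase Nqo1 from 14.8, 12.8 and 17.8 CPM to 2.62 to 5.66 CPM (median 4.1) (-1.87 ± 0.41), while the haem-degrading Hmox1 rose from 17.2, 10.4 and 5.87 CPM to 17.1 to 22.7 CPM (median 20.3) (0.82 ± 0.24, adjusted p = 0.00826).

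All 29 fatty acid oxidation genes fell (median -1.18), as did all 20 of the citric acid cycle (median -1.13), 37 of 38 nuclear genes of oxidative phosphorylation (median -1.07) and 28 of 29 of amino acid breakdown (median -2.84). Acadm, which starts the oxidation of medium-chain fatty acids, was at 821, 954 and 955 CPM in sham and 91.7 to 181 CPM (median 120.4) in UUO_Si (-2.83 ± 0.19, adjusted p = 3.75e-09). Cpt1a, the carnitine gate for fat entry into mitochondria, fell as well (-0.73 ± 0.13). The groups overlapped for neither gene. The cytochrome oxidase subunit Cox5b fell (-1.83) and the complex I subunit Ndufs1 (-1.31), and Sdhd of complex II was the 1 member of its list that did not pass (-0.27 ± 0.23, adjusted p = 0.335). Of the cycle enzymes, Idh2 fell (-1.53). Gldc, which cleaves glycine, fell from 584, 638 and 481 CPM to 9.3 to 23.4 CPM (median 13.9) (-5.21 ± 0.22), the proline oxidase Prodh (-3.80) and Fah, the last step of tyrosine breakdown (-3.41). The proximal tubule is the main site of many of these enzymes, and its marker list fell in 34 of 34 members in the same libraries; the part of tubule loss in the metabolic lists was not tested.

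Sugar metabolism split. Of 24 genes of glucose production and glycolysis, 13 fell and 3 rose (median -0.44). Pck1, the gate enzyme of glucose production, went from 5645, 5081 and 3222 CPM to 48.6 to 303 CPM (median 129) (-5.01 ± 0.39). Hk2, the inducible hexokinase that commits glucose to glycolysis, rose from 2.01, 3.2 and 7.39 CPM to 22.9 to 44.7 CPM (median 28.9) (2.88 ± 0.31, adjusted p = 5.71e-07). Pkm, the last enzyme of glycolysis, was at 291, 307 and 303 CPM in sham and 253 to 340.4 CPM (median 300.4) in UUO_Si, a change of 0.01 ± 0.10 (adjusted p = 0.94), and Ldhb did not pass either (-0.18 ± 0.15, adjusted p = 0.326). Cholesterol synthesis genes fell in 10 of 22 with none higher (median -0.54). Among them Cyp51, a demethylase of the pathway, fell from 272, 272 and 276 CPM to 28.5 to 53.5 CPM (median 35.6) (-2.87 ± 0.22, adjusted p = 1.09e-08).

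Cell cycle genes rose in 23 of 28 and fell in 2 (median 1.59). Mki67, present in dividing cells, was at 26.4, 18.1 and 38.6 CPM in sham and 136 to 243 CPM (median 148) in UUO_Si (2.58 ± 0.23), the mitotic topoisomerase Top2a rose by 3.0 and the replication helicase subunit Mcm3 by 1.94. The D cyclins went apart: Ccnd2 rose from 26.2, 28.1 and 25.2 CPM to 67.3 to 92.5 CPM (median 81.6) (1.62 ± 0.13) and Ccnd1 fell from 156, 170.1 and 163 CPM to 67.1 to 116 CPM (median 105) (-0.74 ± 0.14, adjusted p = 0.000308). The p53 and arrest list rose in 11 of 22 and fell in 3 (median 0.68), with the cell cycle inhibitor Cdkn1a up from 8.6, 6.23 and 6.25 CPM to 17.6 to 24.7 CPM (median 22) (1.61 ± 0.17), the death gene Pmaip1 up by 2.66 and the stress sensor Sesn2 down (-1.13). Immediate early genes rose in 13 of 17 (median 1.22), among them Klf6 (2.18 ± 0.13), the AP-1 subunit Fosl2 (1.52 ± 0.16) and Myc (1.21 ± 0.15), while Fos did not pass (1.16 ± 0.54, adjusted p = 0.0828). Genes of the unfolded protein response had no common direction: of 22, 3 rose, 4 fell and 15 did not pass (median 0.05). With all libraries, Herpud1 was at -1.79, the chaperone Calr at -0.76 and the asparagine synthetase Asns at 1.76. Without UUO_Si replicate 6, 8 members of the list fell.

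The remaining lists bear on vessels and on scaling. Endothelial genes rose in 3 and fell in 6 of 19 (median -0.27). Over all genes 27.2% were higher and 25.5% lower, so no list-wide change is read from these counts. The junction gene Cdh5 rose from 73.5, 87.1 and 78.6 CPM to 125 to 149 CPM (0.81 ± 0.14), the VEGF receptor Kdr fell (-0.56) and its ligand Vegfa, in the kidney largely a product of epithelium, fell from 705, 726 and 474 CPM to 104 to 201 CPM (median 163) (-1.99 ± 0.20). Renin-angiotensin genes fell in 5 of 11 with none higher (median -0.48), Ace (-2.57). Erythroid genes fell in 6 of 9 (median -1.32, against 25.5% of all genes called lower), and in 3 without sham replicate 1 or without UUO_Si replicate 4. Slc4a1, of smallest p among them (-3.50 ± 0.30), also gives the lowest value of the collecting duct list, and the cell source of its fall was not tested. The alpha-globin members, which did not pass, held identical values. Ribosomal protein genes of the cytosol rose in 13 of 27 (median 0.61), such as Rpl35 (1.19 ± 0.14), but in 8 when any 1 sham library was left out. Those of mitochondria fell in 14 of 22 (median -0.45), such as Mrpl4 (-1.09 ± 0.13), and in 7 without sham replicate 1. Genes often used for normalisation moved: of 15, 6 rose and 6 fell, with Gapdh at -1.20 ± 0.20, B2m at 2.15 ± 0.27 and Gusb at 1.63 ± 0.14, and Ppia did not pass (0.13 ± 0.16, adjusted p = 0.502).

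The UUO libraries on the normal diet allow the diets to be compared within the same operation. In that comparison of UUO_Si with UUO, edgeR called 0 of 16752 genes (smallest adjusted p 0.874, 626 genes at an unadjusted p under 0.05), limma called 0 and DESeq2 called 2 (686 at an unadjusted p under 0.05). The 2 genes DESeq2 called were Phlda1 (-0.61, adjusted p = 0.0199) and the Wnt modulator Sfrp4 (-1.73, adjusted p = 0.0406), both lower in UUO_Si. Against sham, Phlda1 was at 0.48 in UUO_Si and 1.09 in UUO, and Sfrp4 at 1.56 and 3.27, in edgeR. UUO and UUO_Si were both set against the same 3 sham libraries, so their fold changes share that error and are placed side by side only. Col1a1 was at 4.78 in UUO_Si against sham and 5.35 in UUO against sham, and the direct difference of UUO_Si minus UUO was -0.57 (95% interval -0.99 to -0.15). Postn was at 3.10 and 4.16, with a direct difference of -1.07 (95% interval -1.74 to -0.39). Acta2 was at 0.76 and 1.60, with a direct difference of -0.83 (95% interval -1.39 to -0.28). These 3 intervals lie below 0 before adjustment, and none of the genes passed adjustment. The UUO libraries were not alike: the median of the fibrillar matrix list, relative to the sham mean, was 2.52 to 2.68 in UUO replicates 1 to 3. It was 3.32 to 3.54 in UUO replicates 4 to 6 and 2.28 to 3.01 in UUO_Si. The part of this split in the 3 differences was not tested. Slc34a1 was at -4.96 in UUO_Si and -5.14 in UUO against sham, with a direct difference of 0.18 (95% interval -0.60 to 0.97). Havcr1 was at 7.70 and 7.67, with 0.03 (95% interval -0.60 to 0.67). For Kcnj1 the values were -0.98 and -1.38, with 0.40 (95% interval 0.21 to 0.60), and for Nqo1 -1.87 and -1.12, with -0.75 (95% interval -1.49 to -0.01). The intervals of Kcnj1 and Nqo1 exclude 0 before adjustment only, and neither gene passed it (edgeR, adjusted p = 0.999 for each).

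The 6 UUO_Si libraries were not alike in depth of change. For the proximal tubule list the median difference from the sham mean ran from -4.08 in replicate 5 to -2.75 in replicate 6 (sham libraries -0.14 to 0.13). Replicate 5 was also lowest and replicate 6 highest for fatty acid oxidation (-1.46 and -0.96), oxidative phosphorylation (-1.47 and -0.69), the citric acid cycle (-1.45 and -0.72) and amino acid breakdown (-3.19 and -2.41). The widest range among the 43 lists was that of keratin and urothelium, from 0.74 in replicate 3 to 3.30 in replicate 5. By contrast the tubular injury list ranged only from 2.41 to 2.69 and the TGF-beta list from 1.04 to 1.26. All of these ranges lay clear of the sham libraries; the nearest was keratin and urothelium, whose highest sham value was 0.43.

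**Figure D4:**
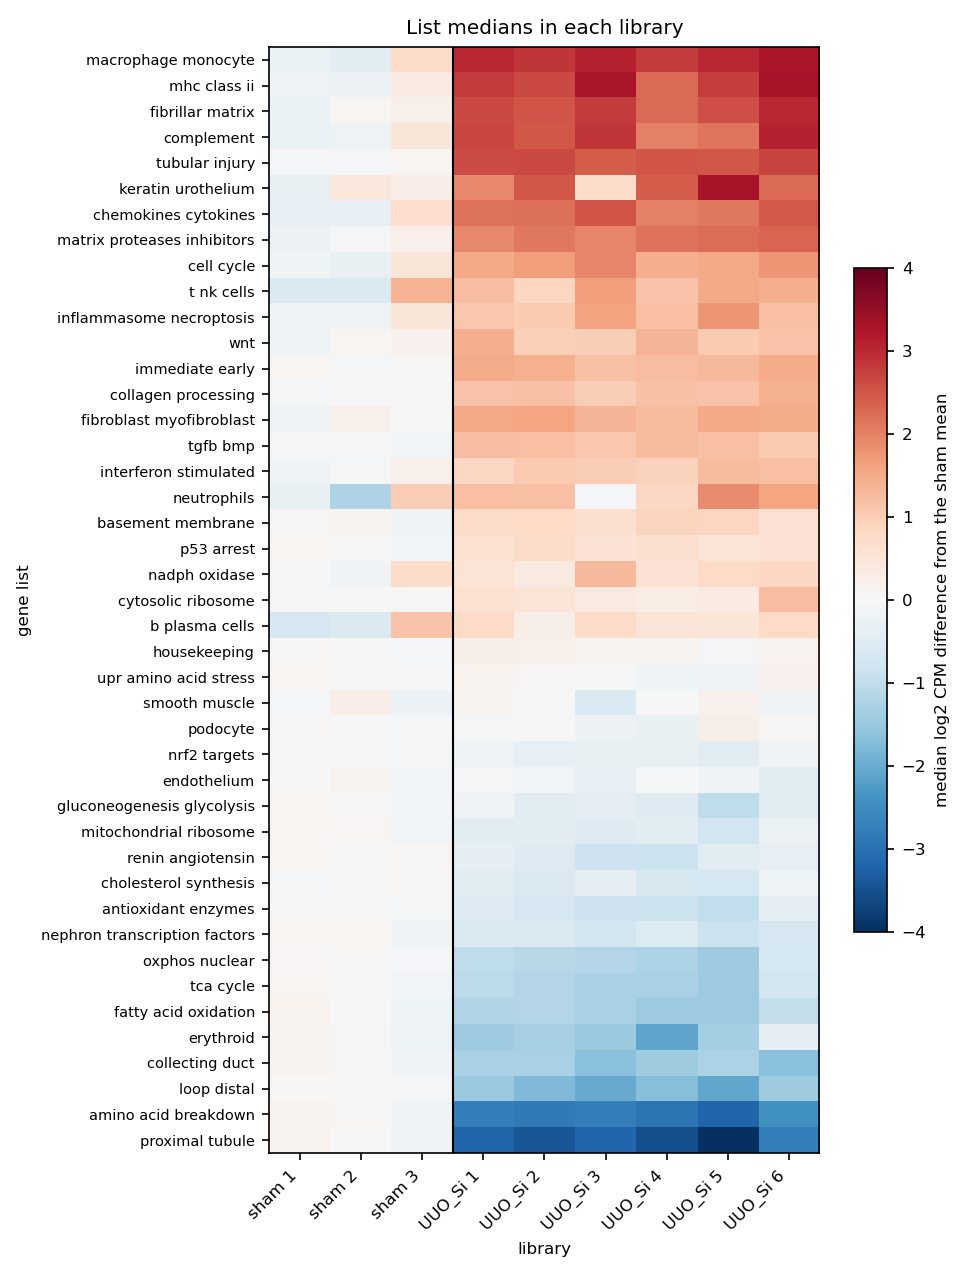
Median over the members of each of 43 gene lists of the log2 CPM difference from the sham mean, in each of the 3 sham and 6 UUO_Si libraries (colour scale from -4 to 4). Each UUO_Si column shows red at the top and blue at the bottom; sham replicate 3 is red for the T and NK cell list (1.40), and UUO_Si replicate 3 is pale for keratin and urothelium (0.74).

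Single genes of the largest spread among UUO_Si fell into a few patterns of library. Scd1, a fatty acid desaturase, was at 1414 CPM in replicate 6 and 61.9 to 133 in the other 5, against 513, 489 and 355 CPM in sham. Its change from sham was -0.58 ± 1.01 (adjusted p = 0.653), and -2.50 without replicate 6 (adjusted p = 0.00468). Thrsp, a lipid synthesis regulator, was at 44.6 in replicate 6, 2.67 to 3.73 in the others and 8.45, 9.27 and 7.58 CPM in sham, and its change went from 0.28 ± 0.87 (adjusted p = 0.808) to -1.43 without replicate 6 (adjusted p = 0.0178). These 2 calls therefore turned on 1 library. The fat cell protease Cfd and the carbonic anhydrase Car3 were also highest in replicate 6, at 83 and 121 CPM, against at most 6.86 and 8.75 in the other 5. A list of 10 fat cell markers, drawn up after these values were seen (Adipoq, Plin1, Plin4, Cidec, Lep, Retn, Fabp4, Cfd, Pparg and Lipe), summed to 387.4 CPM in replicate 6, 75.6 to 117.8 in the other 5 UUO_Si libraries and 86.7 to 94.9 in sham. Among the UUO libraries on the normal diet, replicate 6 was at 340.6 CPM and replicate 5 at 121.3, and the other 4 were between 68.9 and 87.9. In UUO_Si replicate 6 none of the 10 was at 0, as in UUO_Si replicate 1, and 8 were at their highest of the 9 libraries. Adipoq, the hormone adiponectin, was at 17.3 CPM there, Fabp4 at 165.3 CPM and Cfd at 82.8 CPM. Cfd was seen to be high before the list was drawn up, so the sum and the count partly restate it. The part of fat cells in the levels of Scd1, Thrsp and Car3 in that library was not tested. The matrix genes Col6a5 and Col6a6 were high in replicate 3 instead, at 69.8 and 36 CPM against at most 6.75 and 6.83 in the other 5, and Itgbl1 and Cilp were highest in replicate 1, at 20.6 and 42.2 CPM. Scara5, a fibroblast receptor, ranged over 0.905 to 15.8 CPM. Akr1c21, a steroid enzyme of the tubule, was the single gene of the 10 that passed: it fell from 194, 198 and 221 CPM to 2.64 to 52.8 CPM (median 8.88) (-3.72 ± 0.71), with replicate 6 the highest.

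**Figure D5:**
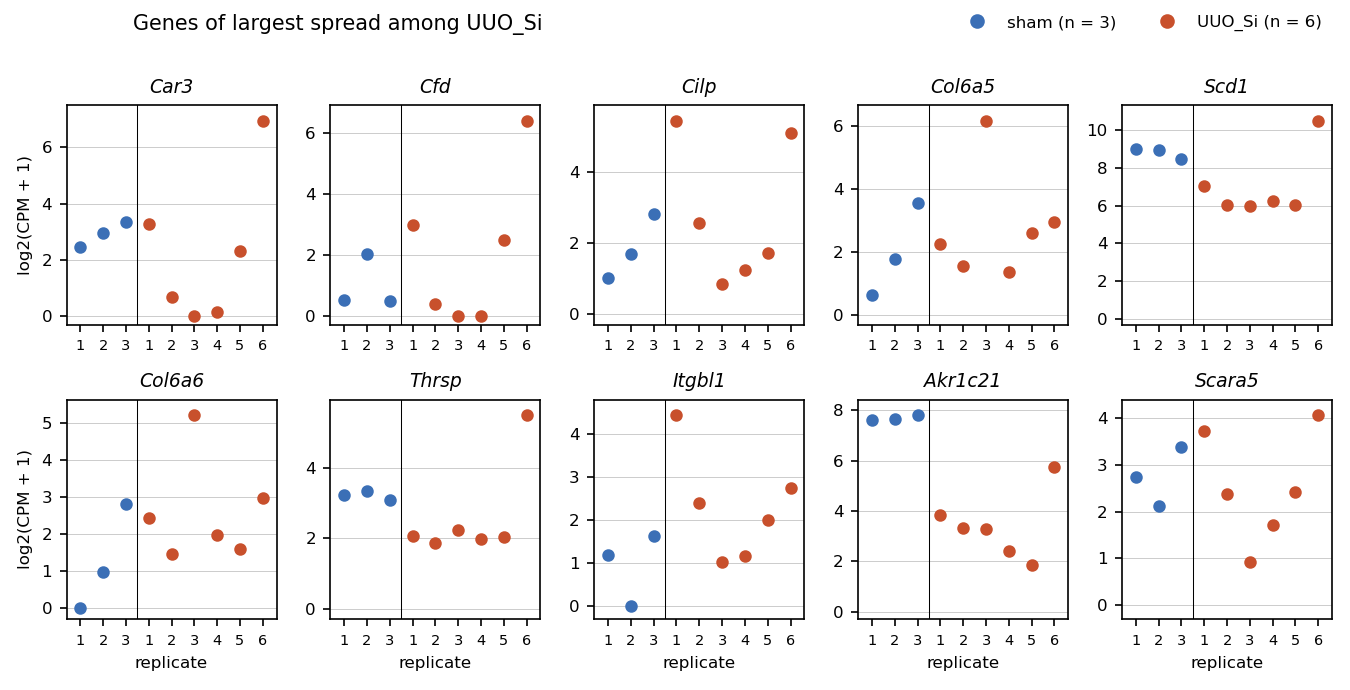
The 10 genes with the largest standard deviation of log2 CPM among the 6 UUO_Si libraries, each as log2(CPM + 1) (y axis) in every sham (blue) and UUO_Si (red) library by replicate number (x axis). UUO_Si replicate 6 is the highest red point for Car3, Cfd, Scd1, Thrsp, Akr1c21 and Scara5, replicate 3 for Col6a5 and Col6a6, and replicate 1 for Cilp and Itgbl1.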

How the data were processed

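The authors deposited 1 table with a value for each of 24421 gene symbols in each of 15 mouse kidney libraries. These were taken to be expected counts, since totals differ between libraries and each library holds 79% to 83% whole values. The authors made these expected counts with mm10 as the reference and with TopHat2 2.1.1 and Cuffdiff 2.2.1, according to the submitters' processing notes. What each tool was used for, how strand was set and which annotation was used is not given in the sources used here, so reads of overlapping genes on opposite strands cannot be told apart. Per the labels' protocols, tissue was kept in RNAlater, RNA was purified with RNeasy and libraries were built with the SMARTer Stranded Total RNA-Seq Kit v2.

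Library totals of the 9 libraries compared were 5530000 to 11500000 counts, which limits genes of low level. Values were rounded and tested with edgeR 4.0.16 (quasi-likelihood, robust, TMM scaling, minimum count 10) under R 4.3.3, with all 15 libraries in 1 fit of a mean per group, so that the groups shared an estimate of spread. P-values were adjusted with the Benjamini-Hochberg method over the genes tested and called at 0.05. The standard error is the absolute log2 fold change over the square root of the F statistic, log2 levels used a prior count of 2, and a list's median in a library is over its members' log2 CPM minus the sham mean. Fits with DESeq2 1.42.0, limma 3.58.1, other scalings and filters, and each library left out were alternatives. The fit was also run on simulated counts in which a small part of the genes changed, as many up as down. In the data 52.7% of the genes were called, so that run cannot show how the scaling behaves here. Gene positions are from GENCODE M21 (GRCm38), which held 95.7% of the symbols. Sequences are from RefSeq (GRCm38.p6).

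The groups, the 43 gene lists and the panel were chosen with earlier results of these data known. Named genes were the 10 largest rises and falls with no overlap and a mean of at least 5 CPM, up to 4 per list of smallest p, up to 4 called against the list's majority and up to 2 not passed of highest level, a panel, and the 10 of largest spread among UUO_Si. Not every gene so selected is described, and some genes are not reported here. Genes shown with a promoter stretch were picked from the 100 largest rises or falls after their motif matches were seen, and the fat cell markers after the levels were seen.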

Additional observations from a re-analysis of the deposited data

Results flagged for a closer look

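Among the 6 UUO_Si libraries, a value was taken to stand apart when the gap between an end library and its nearest neighbour, over the whole range, passed Dixon's 95% critical value. Of 233 values examined (named genes, library measures and list medians), 39 stood apart, with UUO_Si replicate 6 the library in 23 of them. Chance flags about 1 in 20 groups of independent values. The named genes include 10 chosen for their spread among these libraries, of which 8 stood apart, and the genes of a library are not independent, so no excess over chance is read from the count. Without those 10, it was 31 of 223, with replicate 6 in 18.

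In replicate 6, Scd1 was at 1414 CPM (61.9 to 133 in the other 5), Thrsp at 44.6 (2.67 to 3.73), Car3 at 120.8 (0 to 8.75) and Cfd at 83.0 (0 to 6.86). Slc22a8 was at 22.2 CPM (2.14 to 7.35), Akr1c21 at 52.8 (2.64 to 13.2), Ace at 76.1 (16.8 to 34.9), Bhmt at 0.9996 (0 to 0.308), and Slc22a28, Slc22a29 and Slc22a30 at 1.67, 2.25 and 1.33 (at most 0.628). Adgre1 was at 95.04 CPM (44.2 to 59.5), Hk2 at 44.7 (22.9 to 29.9), Fosl2 at 210.3 (120.6 to 145), Herpud1 at 153 (75.0 to 103) and Mrpl4 at 24.2 (19.4 to 20.8). Kit at 54.6 CPM (66.7 to 73.4) and Smad7 at 59.9 (81.1 to 86.6) were low there. Of the library measures of replicate 6, genes detected were 21949 (18520 to 18682), receptor genes detected 980 (91 to 126), the ribosomal protein share 2.39% (1.28% to 1.59%) and the haemoglobin share 0.0149% (0.00387% to 0.00781%), and its cytosolic ribosome list median was 1.25 (0.29 to 0.61).

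In replicate 3, Ubd was at 117.6 CPM (13.7 to 28.8), Retnla at 31.4 (3.70 to 8.92), Col6a5 at 69.8 (1.57 to 6.75), Col6a6 at 36.0 (1.75 to 6.83), Mki67 at 243 (135.7 to 170.2) and Top2a at 104 (46.9 to 66.8), while Cldn16 at 2.94 (5.25 to 5.96) and Fos at 5.54 (10.3 to 13.0) were low. The share of the ribosomal RNA transcript Rn45s was 4.45% in that library (2.13% to 2.84%). In replicate 5, Krt14 was at 55.4 CPM (10.6 to 26.8), Csf3r at 23.6 (12.9 to 16.8) and Slc26a4 at 23.1 (15.1 to 17.8), and Plau was low at 361 (543 to 640.1). In replicate 1, Itgbl1 was at 20.6 CPM (1.02 to 5.66), Myc at 42.2 (27.1 to 32.3) and Slc12a3 at 305 (181 to 228).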

How the results depend on the processing

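Under 21 alternatives the count of genes called between UUO_Si and sham lay between 7693 (without sham replicate 1) and 9928 (with a term for the 4 libraries rich in receptor genes), and the count past a 2-fold change between 1879 (DESeq2) and 3046 (without those 4 libraries). Leaving out each library in turn gave 7693 to 8800 called. Without sham replicate 1, 7296 of the 8834 genes called with all libraries were called again. Of the called genes, 49.1% to 56.4% were higher, and the median of all genes moved past 0.1 only with no filter on low counts (-0.23). For UUO_Si against UUO, DESeq2 called 2 genes and every other setting run called 0. Of the 160 named genes with a call that were recomputed, 150 kept it under every setting that tested them. Sfrp4 and Phlda1 were among the others. Many named genes were picked for a large change or a small p in these data, so this share does not describe all called genes. Called genes and list medians larger than the spread between UUO_Si libraries (1 SD) were checked for a turn of sign, as were genes called only under an alternative. Those that turned were Thrsp (-1.28 in limma, -1.28 with the replicate block, -1.49 without the 4 libraries and -1.43 without UUO_Si replicate 6, with 0.48 the highest when 1 library was left out) and 2 list medians: B and plasma cells (-0.35 without sham replicate 1, -0.21 without sham replicate 2 and -0.01 without UUO_Si replicate 5, up to 2.23 without sham replicate 3) and neutrophils (-0.38 with no filter, -0.45 without sham replicate 1 and -0.53 without sham replicate 2, up to 2.23 without sham replicate 3). Medians nearer 0 also changed sign: smooth muscle (0.01) was -0.09 without sham replicate 1 and 0.24 without sham replicate 2, the unfolded protein response list (0.05) was -0.02 without the 4 libraries, and the median of all genes (-0.04) was 0.04 without sham replicate 3. The cause was not tested.

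The labels give the groups the same replicate numbers but do not say whether a number marks a shared litter or day. These correlations cannot settle that. Deviations of same-numbered sham and UUO_Si libraries correlated at 0.159, 0.115 and -0.0411 over genes. Those of UUO and UUO_Si ran from -0.39 (replicate 5) to 0.754 (replicate 6), with 4 between -0.0421 and 0.17. With the replicate block, 8268 genes were called, 4301 higher and 3967 lower, and 2448 were past a 2-fold change. With 3 sham libraries, low-level genes such as those of B cells and neutrophils are limited by depth, and intervals from counts cover counting error only.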
